A study of Homo sapiens with 24 samples.

Results

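MYC, MAX and MondoA belong to a network of transcription factors that share DNA sites and dimerization partners. The 10 members described here were taken by gene symbol, as the rows of the raw count table whose Ensembl identifiers map to MYC, MAX, MXD1, MXD3, MXD4, MNT, MLX, MLXIP, TXNIP and ARRDC4, out of 60617 genes in the table. The symbols do not depend on a measured value, but the set was put together with earlier results of these data known, so counts of its members are descriptions. All 10 passed the filter on low counts, and they were among the 15476 genes tested. RNA-seq was performed on MDA686TU, a cell line established from a human squamous cell carcinoma of the head and neck, so every library comes from 1 line. The cells were left untreated or received epigallocatechin gallate (EGCG, the main polyphenol of green tea) at 40 µM, resveratrol (a polyphenol of grapes) at 15 µM, or both agents at these doses, all for 24 h, with 6 libraries in each of the 4 groups. EGCG was dissolved in water and resveratrol in DMSO, and the sources used here do not say whether control or EGCG cultures also received DMSO, so resveratrol and its solvent cannot be told apart. The comparisons ask what each agent alone and the combination do to the network, and what 1 agent adds to the other.

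In this network MYC binds E-box DNA as a dimer with MAX and activates genes of growth, ribosome production and metabolism. MXD1, MXD3, MXD4 and MNT compete for MAX and recruit corepressors to the same kind of site. MLXIP (MondoA), a sensor of phosphorylated glucose, pairs instead with MLX and drives TXNIP and ARRDC4, a pair of alpha-arrestins that restrain glucose uptake.

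The libraries held 7034872 to 11735574 counts. The share of counts from mitochondrial transcripts was 0.249% to 0.326% in replicates numbered 1 to 3 and 0.448% to 0.775% in those numbered 4 to 6, whatever the treatment. No source names a batch, so the split is one found in the data. Values within each set of replicates are given beside the pooled ones for some results, and the sets also differed in others. All 10 markers of squamous epithelium were detected, with a summed FPKM (fragments scaled to gene length and sequencing depth) of 6462 to 6818 in the control, 6181 to 6963 under EGCG, 5388 to 5682 under resveratrol and 5353 to 5852 under the combination. That sum is weighted to abundant genes, and the 10 did not all move the same way. KRT5, a keratin, had the most normalized counts, with means of 45967 in the control and 35507 under the combination. The 5 leukocyte markers summed to at most 0.535 FPKM in any library and the 4 endothelial markers to at most 0.245. The summed FPKM of 6 fibroblast markers was 13.1 to 15.8 in the control, 10.7 to 13.2 under EGCG, 15.4 to 18.4 under resveratrol and 17.99 to 20.8 under the combination. Among those 6, COL1A1, a collagen chain, had the highest level, with a mean of 1182 normalized counts in the control, while COL3A1, DCN, LUM and PDGFRB had too few counts to be tested. The part of this shift in the results below was not tested.

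Levels per transcript length, in FPKM, set MYC and TXNIP apart from the other members. In the control MYC stood at 82.5 ± 3.84 FPKM (SD, n = 6) and TXNIP at 63.2 ± 2.71. MLX at 17.8 ± 0.936, MAX at 11.9 ± 0.403, ARRDC4 at 10.1 ± 0.824 and MLXIP at 7.70 ± 0.460 formed the middle of the order. The repressors were the least abundant, with MNT at 3.06 ± 0.212, MXD1 at 1.64 ± 0.147, MXD4 at 1.36 ± 0.0987 and MXD3 at 1.04 ± 0.106. Of the neighbours in this order, only MXD4 and MXD3 had overlapping ranges over the 6 control libraries. With the combination the first 2 places were exchanged, at 91.8 ± 3.17 FPKM for TXNIP and 81.1 ± 3.27 for MYC.

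**Figure D1:**
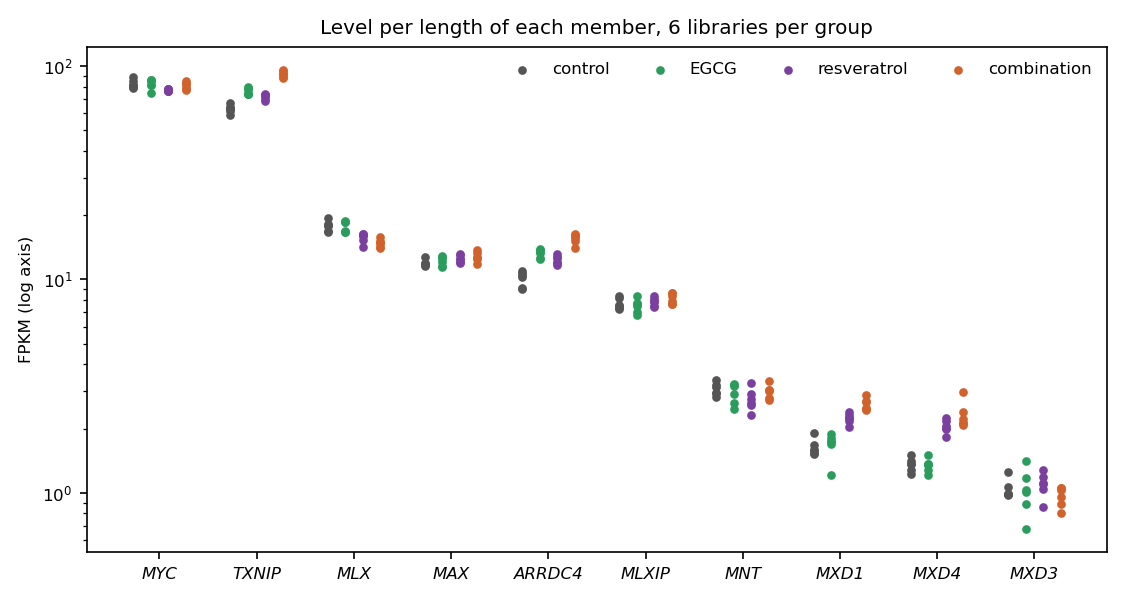
FPKM (log axis) of the 10 members, ordered by their mean in the control; each point is 1 library and the colours mark the 4 groups of 6. TXNIP with the combination lies above MYC, and the MXD repressors lie lowest.

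A gene was called changed when its Benjamini-Hochberg adjusted p, over all tested genes, was under 0.1 and its unadjusted p under 0.05 by the quasi-likelihood test of edgeR, fitted to the raw counts, and these limits follow the study's methods. Fold changes below are fitted log2 values with their standard errors, and levels are the authors' normalized counts, which are comparable between libraries for 1 gene. EGCG changed 2 of the 10 members, beside 1.76% of all tested genes, and both were higher (0.905% of all tested genes). Resveratrol changed 7 members, where the background was 56.9%, of which 4 were higher (28.9%) and 3 lower (28.0%). The combination changed 6 members, beside 59.8%, with 5 higher (29.9%) and 1 lower (29.9%). Against resveratrol the combination changed 3 members, beside 7.86%, all of them higher (4.01%, with 3.86% lower). Against EGCG it changed 6, beside 57.8%, with 5 higher (28.7%) and 1 lower (29.1%). Members whose groups of 6 libraries did not overlap numbered 2 with EGCG (1.58% of all tested genes), 6 with resveratrol (31.0%), 5 with the combination (31.9%), 3 for combination against resveratrol (3.20%) and 5 for combination against EGCG (27.5%). The shares of members called in either direction with resveratrol and the combination were thus near those of all tested genes, while the shares called higher and those without overlap were above them, with 10 members behind each. The members had a median fold change of 0.00 under EGCG, 0.07 under resveratrol and 0.09 under the combination, and the median of all tested genes was 0.00 each time. The 3 comparisons against the control share its 6 libraries, as the comparisons with the combination share those of the combination.

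**Figure D2:**
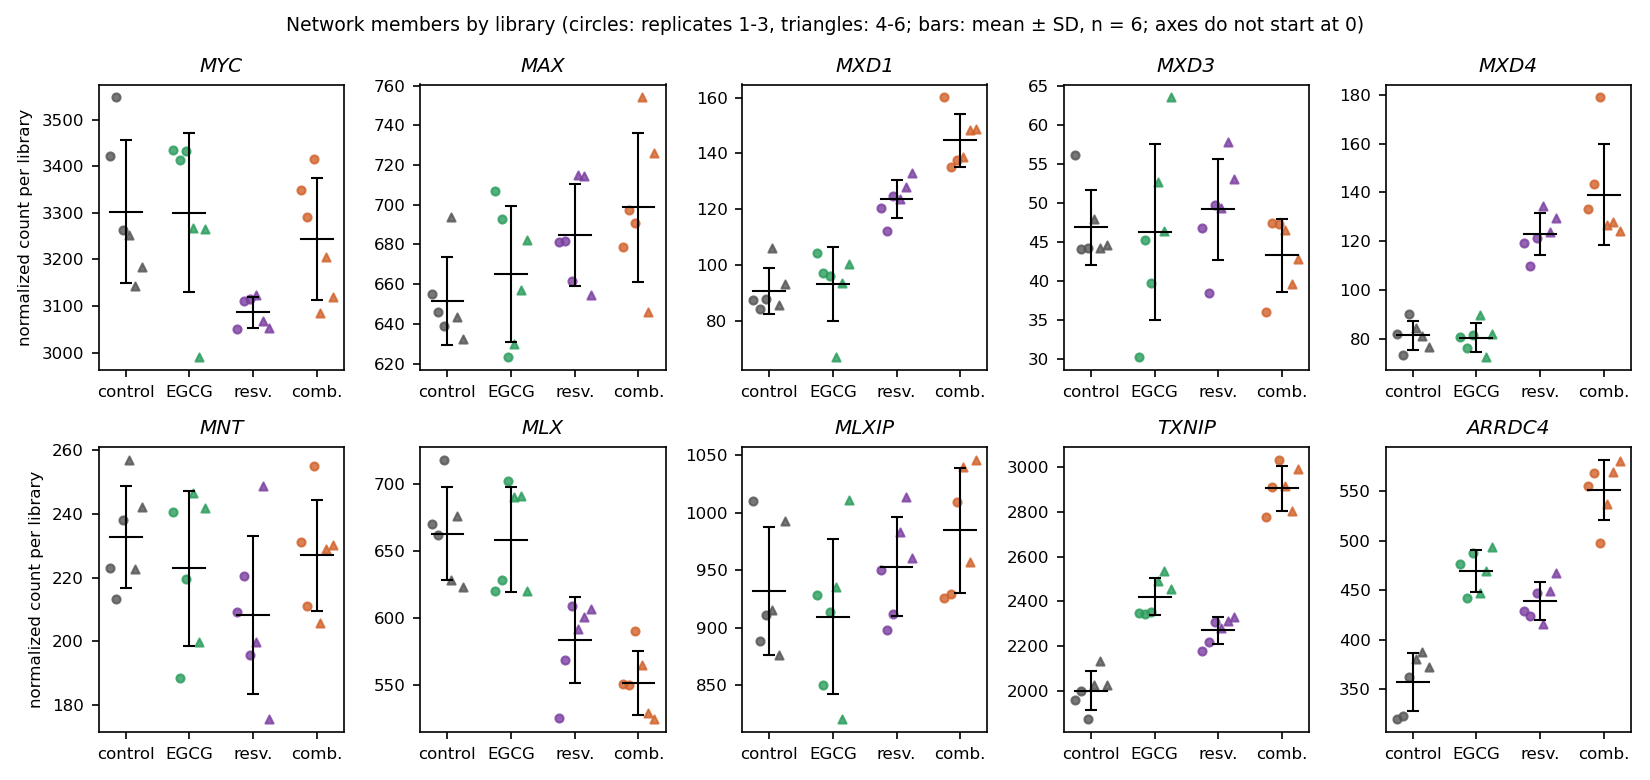
Normalized count (linear axes that do not start at 0) of each member in the 24 libraries by group (resv., resveratrol; comb., combination); circles are replicates 1 to 3, triangles replicates 4 to 6, and bars give the mean ± SD (n = 6). TXNIP and ARRDC4 step up in each treated group, MXD1 and MXD4 in those with resveratrol, and MLX is lower in both of these.

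TXNIP, which binds thioredoxin and glucose transporters, and its relative ARRDC4 were the members called in all 5 pairwise comparisons that were tested, each time higher in the group with the added agent and without overlap between the groups. EGCG was not tested against resveratrol. TXNIP (chromosome 1, 145992435 to 145996579, minus strand, GRCh38) had normalized counts of 1871 to 2131 in the control (median 2010). The range was 2341 to 2534 with EGCG (median 2403) and 2177 to 2331 with resveratrol (median 2294). With the combination it was 2778 to 3033 (median 2913). Every treated library thus lay above every control library, every combination library above every library with 1 agent, and every EGCG library above every resveratrol library. TXNIP rose by a log2 fold change of 0.28 ± 0.03 (SE) with EGCG (edgeR adjusted p = 3.49e-07), by 0.19 ± 0.03 with resveratrol (edgeR adjusted p = 7.73e-06) and by 0.54 ± 0.03 with the combination (edgeR adjusted p = 1.08e-16). These are levels 1.21, 1.14 and 1.46 times those of the control, and in bulk RNA a larger share of expressing cells and more RNA per cell cannot be told apart. The combination exceeded resveratrol by 0.35 ± 0.03 (edgeR adjusted p = 8.55e-10) and EGCG by 0.27 ± 0.03 (edgeR adjusted p = 9.13e-09). Ranked from the top among 15476 tested genes, the TXNIP fold change took place 548 with EGCG, 4263 with resveratrol and 338 in the combination against resveratrol.

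ARRDC4 (chromosome 15, 97960703 to 97973833, plus strand), an adaptor of membrane protein trafficking, moved the same way from a lower level. Its normalized counts were 319.8 to 387.6 in the control (median 367.5). They were 442.7 to 493.8 with EGCG (median 473.2) and 416.4 to 467.5 with resveratrol (median 438.4). In the combination they were 497.9 to 581.1 (median 562.1). The EGCG and resveratrol groups overlapped here, and both lay between the control and the combination without touching either. ARRDC4 rose by 0.40 ± 0.05 with EGCG (edgeR adjusted p = 1.59e-06), by 0.30 ± 0.05 with resveratrol (edgeR adjusted p = 4.29e-06) and by 0.63 ± 0.05 with the combination (edgeR adjusted p = 2.03e-13), or 1.32, 1.23 and 1.54 times the control. The combination was higher than resveratrol by 0.33 ± 0.05 (edgeR adjusted p = 1.32e-05) and higher than EGCG by 0.23 ± 0.05 (edgeR adjusted p = 0.000102). Its fold change with EGCG took place 211 from the top of 15476.

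Both genes kept their calls within each set of 3 replicates. TXNIP rose by 0.28 in replicates 1 to 3 and by 0.28 in replicates 4 to 6 with EGCG, by 0.21 and 0.16 with resveratrol, and by 0.59 and 0.50 with the combination. ARRDC4 rose by 0.49 and 0.31 with EGCG, by 0.38 and 0.23 with resveratrol, and by 0.69 and 0.57 with the combination. The control libraries of ARRDC4 averaged 335.3 normalized counts in replicates 1 to 3 and 380.1 in replicates 4 to 6.

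For TXNIP and ARRDC4 the combination stood, on the log2 scale, near the sum of the effects of the single agents. For TXNIP that sum was 0.46 and the combination 0.54. Its interaction, the difference of the differences, was 0.08 with a 95% interval of −0.01 to 0.17 (edgeR adjusted p = 0.739). For ARRDC4 the sum was 0.69 and the combination 0.63, with an interaction of −0.07 and an interval of −0.21 to 0.07 (edgeR adjusted p = 0.891). No member had a called interaction or an unadjusted p under 0.05 for it in edgeR, and DESeq2 also called 0 members, while 0.265% of all tested genes were called in edgeR. The interval reaches 0.17 for TXNIP, beside effects of 0.28 with EGCG and 0.19 with resveratrol. It reaches −0.21 for ARRDC4, beside 0.40 and 0.30, so additivity was not shown. Among the members, sum and combination lay furthest apart for MXD4 (0.56 and 0.78), MNT (−0.22 and −0.03) and MXD1 (0.50 and 0.68).

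The bases upstream of the start sites of this pair are printed because MondoA and MLX bind E-box-like elements. The sequences are from RefSeq promoters (GRCh38.p14, 250 bases before to 50 after a start), which held an entry for 9 of the 10 members. Capitals in the TXNIP stretch mark a pair of CACGNG elements with 5 bases between them, 88 to 72 bases before the start. Those in the ARRDC4 stretch mark a CACGTG E-box 210 to 205 bases before the start.
TXNIP chr1:145996580-145996729 (minus strand): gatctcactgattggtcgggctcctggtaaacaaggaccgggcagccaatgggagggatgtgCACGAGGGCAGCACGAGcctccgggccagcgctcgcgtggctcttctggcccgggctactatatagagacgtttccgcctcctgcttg
ARRDC4 chr15:97960453-97960602 (plus strand): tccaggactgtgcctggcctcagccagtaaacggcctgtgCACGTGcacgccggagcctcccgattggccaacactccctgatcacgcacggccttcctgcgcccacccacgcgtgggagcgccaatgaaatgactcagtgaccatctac

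The paired element occurred in 20 of 35116 promoters in the table, or 0.0570%, and CACGTG in 7.26%, both strands being searched, with overlap of the motifs allowed. The published consensus of the carbohydrate response element (ChoRE) has the same length of 17 bases and the same spacing but allows other letters. It matched 0.0883% of promoters and no member, so the TXNIP pair differs from this consensus in its letters and not in its length. CACGTG also occurred in MXD4, MNT and MLX, while the promoters of MAX, MXD1, MXD3 and MLXIP held none of the 3 motifs. A match describes letters in a window and not a bound site.

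Levels in CPM are counts scaled to the library total as adjusted by TMM, the scaling of the edgeR fit. Among 11674 genes with a mean of at least 5 CPM, log2 CPM was compared with that of TXNIP over the 24 libraries. ARRDC4 had the highest Pearson correlation, at 0.918. It was followed by KCNH3 (0.912), NDRG1 (0.905), C1QL4 (0.905) and OSMR (0.901). The values describe the differences between the groups as well as those within them, and the libraries share their depth and scaling. Of the other members, MXD1 (0.646) and MXD4 (0.630) came next and MLX was lowest (−0.580).

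**Figure D3:**
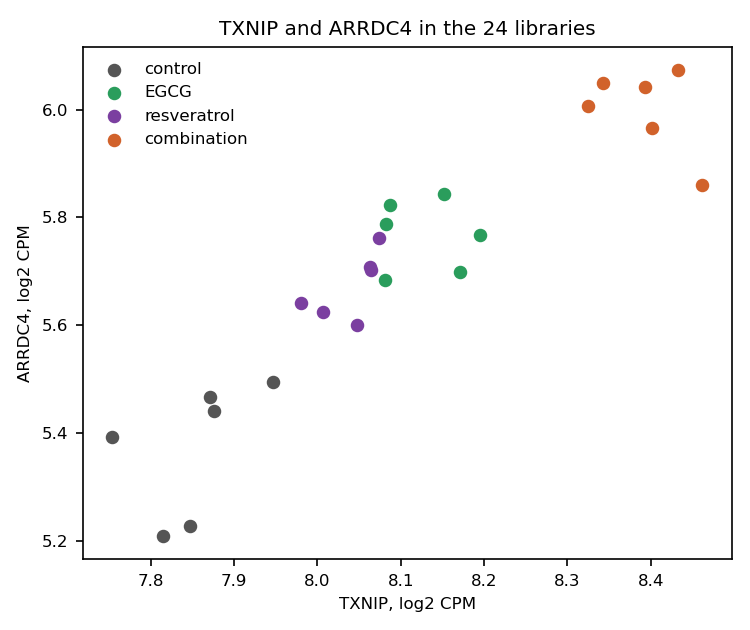
TXNIP against ARRDC4 in log2 CPM (counts scaled to the library total as adjusted by TMM) in the 24 libraries, coloured by group. The control lies at the lower left, the libraries with 1 agent in the middle and the combination at the upper right, and Pearson's correlation over all 24 was 0.918.

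MLXIP and MLX, the factors that drive this pair, were not called with EGCG. MLXIP (chromosome 12, 122078756 to 122147344, plus strand), which encodes MondoA, had normalized counts of 932.2 ± 55.6 in the control, 909.7 ± 67.5 under EGCG, 953.0 ± 43.1 under resveratrol and 984.5 ± 54.2 under the combination (SD, n = 6). The groups overlapped in every comparison. Against the control its fold changes were −0.04, 0.03 and 0.08, none of them called, with intervals of −0.13 to 0.06, −0.06 to 0.13 and −0.01 to 0.17. The change with the combination was 0.04 in replicates 1 to 3 (edgeR adjusted p = 0.654) and 0.13 in replicates 4 to 6 (edgeR adjusted p = 0.0662, called). It was called in 4 of 12 fits without 1 library, and at 0.16 with library size alone (edgeR adjusted p = 0.0019). The combination was 0.12 ± 0.05 above EGCG (edgeR adjusted p = 0.0275), a call that held in replicates 4 to 6 (0.15, adjusted p = 0.0300) but not in replicates 1 to 3 (0.09, adjusted p = 0.219) and was lost without EGCG replicate 5 (edgeR adjusted p = 0.108). Scaled by library size alone this difference was 0.20 (edgeR adjusted p = 0.00035).

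MLX (chromosome 17, 42567072 to 42573239, plus strand), the partner of MondoA, was lower wherever resveratrol was present. It had 623.0 to 718.1 normalized counts in the control (median 665.7) and 619.7 to 701.8 with EGCG (median 659.1). Resveratrol brought it to 525.4 to 608.5 (median 596.1) and the combination to 524.0 to 590.0 (median 549.8). Control and EGCG overlapped throughout, and all libraries with resveratrol lay below both. MLX fell by 0.18 ± 0.04 on the log2 scale with resveratrol (edgeR adjusted p = 0.00075) and by 0.26 ± 0.04 with the combination (edgeR adjusted p = 5.59e-06), while the change with EGCG was −0.01 ± 0.04 (edgeR adjusted p = 0.979). The combination was 0.834 times the control. Under scaling to library size alone, in place of the TMM scaling behind the other edgeR values, the change with resveratrol was −0.09 (edgeR adjusted p = 0.0734), still called. With resveratrol the fall was −0.26 in replicates 1 to 3 (adjusted p = 0.00242) against −0.10 in replicates 4 to 6 (adjusted p = 0.161, not called). The gene overlaps PSMC3IP on the opposite strand, which rose by 0.26 with resveratrol and 0.44 with the combination, and the strand setting of the counting is not given in the sources used here, so reads of the overlap may be shared.

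Of the repressors that compete for MAX, MXD1 and MXD4 rose with resveratrol and with the combination, MNT was called slightly lower with resveratrol, and MXD3 was called in no comparison. EGCG alone left all 4 uncalled. MXD4 (chromosome 4, 2247432 to 2262109, minus strand), found mostly in differentiating cells, had 73.5 to 90.5 normalized counts in the control (median 81.7) and 72.6 to 90.0 with EGCG (median 81.2). Resveratrol gave 109.9 to 134.5 (median 122.6) and the combination 124.4 to 178.8 (median 130.5). The groups with and without resveratrol did not overlap, whereas resveratrol and combination did. MXD4 rose by 0.59 ± 0.09 with resveratrol (edgeR adjusted p = 5.43e-07) and by 0.78 ± 0.09 with the combination (edgeR adjusted p = 1.2e-09), 1.51 and 1.72 times the control, which was the largest fold change among the members in both comparisons. The combination and resveratrol differed by 0.19 ± 0.08 (edgeR adjusted p = 0.190), with 0.39 in replicates 1 to 3 (adjusted p = 0.0612, called) and −0.03 in replicates 4 to 6 (adjusted p = 0.95).

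MXD1 (chromosome 2, 69897688 to 69942945, plus strand), the first described repressor of this family, had 84.0 to 106.1 normalized counts in the control (median 87.6) and 66.8 to 104.3 with EGCG (median 96.5). It reached 112.3 to 132.8 with resveratrol (median 124.2) and 135.0 to 160.1 with the combination (median 143.6). All libraries of the combination lay above those of resveratrol, which in turn lay above control and EGCG. MXD1 rose by 0.45 ± 0.08 with resveratrol (edgeR adjusted p = 1.68e-05) and by 0.68 ± 0.08 with the combination (edgeR adjusted p = 5.46e-09), 1.36 and 1.60 times the control. The further rise from resveratrol to the combination, 0.23 ± 0.08, was close to the limit (edgeR adjusted p = 0.0725). Within the sets of replicates it was 0.27 (adjusted p = 0.156) and 0.18 (adjusted p = 0.570), called in neither, and it lost its call without any 1 of 6 libraries, namely resveratrol replicates 1, 2 and 3 and combination replicates 1, 5 and 6 (highest edgeR adjusted p = 0.185). MXD1 overlaps SNRNP27, a splicing factor on the same strand, whose changes of 0.13 with resveratrol and 0.14 with the combination were not called.

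MNT (chromosome 17, 2384073 to 2401104, minus strand), the most widely expressed antagonist of MYC, had 232.7 ± 16.1 normalized counts in the control, 222.9 ± 24.4 under EGCG, 208.2 ± 24.9 under resveratrol and 227.0 ± 17.5 under the combination. The groups overlapped throughout, and the fall of 0.16 with resveratrol (SE 0.07, edgeR adjusted p = 0.0739) was lost in 8 of the 12 fits without 1 library, where the adjusted p reached 0.200. These 8 libraries were control replicates 3 to 6 and resveratrol replicates 1, 3, 4 and 6. It was −0.07 (edgeR adjusted p = 0.460), not called, with library size alone. The fall came to −0.10 in replicates 1 to 3 (adjusted p = 0.441) and −0.21 in replicates 4 to 6 (adjusted p = 0.09). Its fold change with the combination was −0.03 (interval −0.18 to 0.12), which was not called.

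MXD3 (chromosome 5, 177301461 to 177312757, minus strand), a repressor tied to proliferating cells, was the least abundant member, at 46.9 ± 4.78, 46.3 ± 11.3, 49.2 ± 6.49 and 43.3 ± 4.69 normalized counts in the control, EGCG, resveratrol and combination groups. Its intervals were wide, from −0.32 to 0.21 with EGCG, from −0.20 to 0.32 with resveratrol and from −0.38 to 0.16 with the combination. With EGCG the fold change went from −0.35 in replicates 1 to 3 to 0.22 in replicates 4 to 6, neither called. It overlaps RAB24 on the same strand and PRELID1 on the opposite strand, the latter with 1181 normalized counts in the control.

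The promoters of MXD4, MNT and MLX each held a CACGTG, the site of both MYC-MAX and MXD-MAX dimers, and windows of 30 bases around it are shown with the E-box in capitals. From the start site these E-boxes lie at −238 to −233 in MXD4, −193 to −188 in MNT and −50 to −45 in MLX. The fold change with resveratrol was 0.59 for MXD4, −0.16 for MNT and −0.18 for MLX, so genes with this element moved in different directions.
MXD4 chr4:2262330-2262359 (minus strand): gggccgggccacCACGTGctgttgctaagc
MNT chr17:2401236-2401265 (minus strand): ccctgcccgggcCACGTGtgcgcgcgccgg
MLX chr17:42567038-42567067 (plus strand): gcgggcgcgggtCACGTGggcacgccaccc

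**Figure D4:**
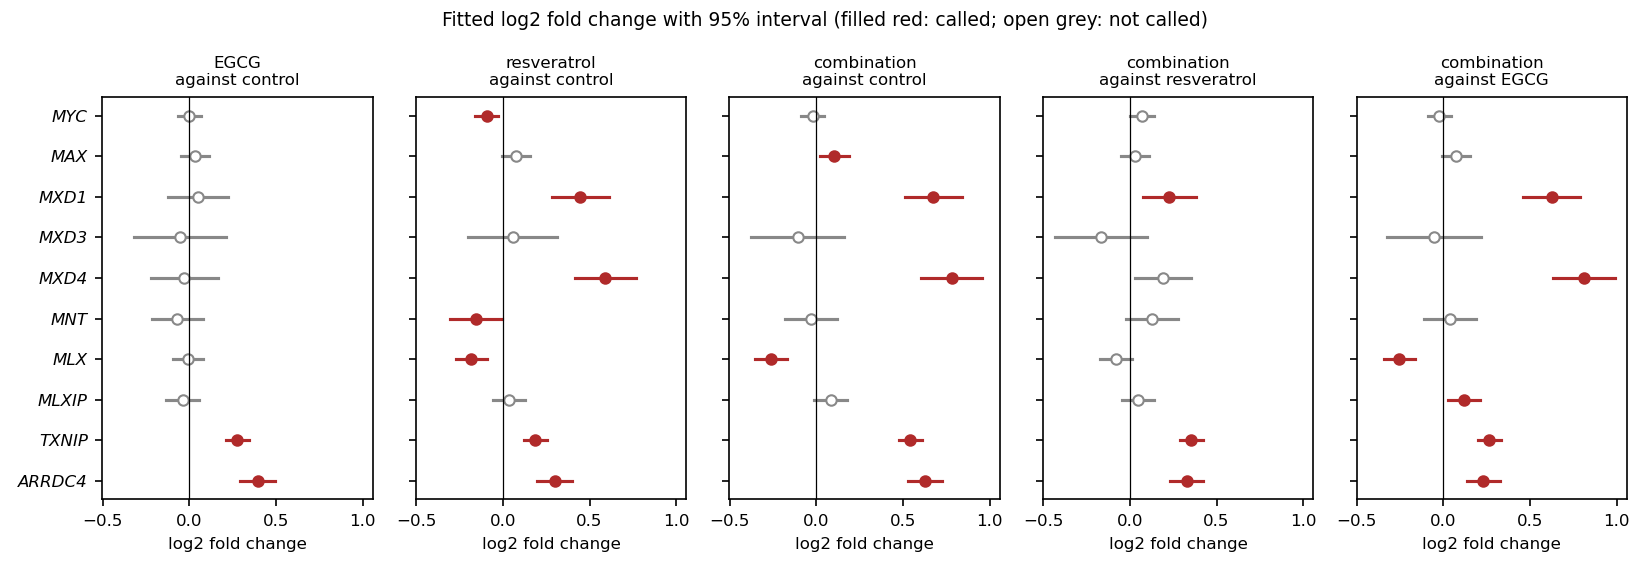
Fitted log2 fold change of each member with its 95% interval in the 5 pairwise comparisons; filled red points were called and open grey points were not. TXNIP and ARRDC4 are called in all 5 panels, and MXD1 and MXD4 show the largest rises with resveratrol.

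MYC and MAX, at the centre of the network, moved little. MYC (chromosome 8, 127735434 to 127742951, plus strand) had 3143 to 3547 normalized counts in the control (median 3257) and 2990 to 3435 with EGCG (median 3340). With resveratrol it had 3050 to 3123 (median 3089), and with the combination 3085 to 3416 (median 3248). Each resveratrol library was below the lowest control library, while EGCG and combination overlapped the control. The SD was 154 normalized counts in the control and 33.5 with resveratrol. MYC fell by 0.09 ± 0.03 on the log2 scale with resveratrol (edgeR adjusted p = 0.0189), or to 0.938 times the control. Its fold change was 0.00 ± 0.03 with EGCG (interval −0.07 to 0.07) and −0.02 ± 0.03 with the combination (interval −0.09 to 0.05), neither called. The difference between combination and resveratrol was 0.07 ± 0.03 (edgeR adjusted p = 0.251).

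The fall of MYC with resveratrol depended on the scaling and on the replicates. With library size alone in place of TMM the fold change was −0.01 (edgeR adjusted p = 0.911). Under that scaling the fold changes of all tested genes rose by 0.09 (resveratrol) and 0.08 (combination) in the median, and the share of higher genes among those called moved from 50.7% to 68.3% and from 50.0% to 64.6%. Within replicates 1 to 3 the fall was −0.13 (adjusted p = 0.00888), and within replicates 4 to 6 it was −0.05 (adjusted p = 0.313), not called. The genes whose log2 CPM followed MYC most closely over the 24 libraries were LASP1 (Pearson 0.799), SH3GL1 (0.780), MAP7D1 (0.780), CD44 (0.771) and POLD2 (0.766).

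MAX (chromosome 14, 65006174 to 65102695, minus strand), the shared partner of MYC and its repressors, had 651.5 ± 22.0 normalized counts in the control, 665.3 ± 34.2 under EGCG, 684.7 ± 25.5 under resveratrol and 698.7 ± 37.5 under the combination. All groups overlapped. It was called only with the combination (0.10 ± 0.04, edgeR adjusted p = 0.0264), where it stood at 0.10 in replicates 1 to 3 (adjusted p = 0.170) and at 0.11 in replicates 4 to 6 (adjusted p = 0.115). Without combination replicate 4 that call was lost, at an edgeR p of 0.0544 and an adjusted p of 0.0920. With library size alone the rise was 0.19 (edgeR adjusted p = 0.000166), and MAX was also called with resveratrol, at 0.16 (edgeR adjusted p = 0.000795). The gene overlaps FNTB, a farnesyltransferase subunit on the opposite strand, which fell by 0.47 with resveratrol and by 0.40 with the combination.

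To describe MYC beside the repressors among the members, the FPKM of MXD1, MXD3, MXD4 and MNT was summed, leaving out their relative MXI1. The sum was 7.10 ± 0.419 in the control, 6.99 ± 0.462 under EGCG, 8.12 ± 0.443 under resveratrol and 8.88 ± 0.522 under the combination (SD, n = 6). MYC stood at 11.7 ± 1.07, 11.8 ± 0.920, 9.53 ± 0.534 and 9.14 ± 0.310 times this sum. The ratio ranged from 10.4 to 13.6 over the control libraries and from 8.65 to 9.50 over those of the combination.

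The remaining genes of the network were MYCN, which had too few counts to be tested, MYCL, MXI1, MGA and MLXIPL. All 4 tested genes were called higher with resveratrol and with the combination, beside 28.9% and 29.9% of all tested genes, and none with EGCG, beside 0.905%. MXI1, another MXD family repressor, rose by 0.42 and 0.33, and MYCL, a MYC paralog, by 0.49 and 0.42. MLXIPL (ChREBP), the paralog of MondoA, rose by 1.07 and 0.95 from a low level of 9.36 ± 3.57 normalized counts in the control. MGA, a MAX partner, rose by 0.25 in both comparisons.

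Genes that MYC is known to activate were lower in the groups with resveratrol. Of 47 such genes 45 were tested, and 42 were called lower and 1 higher with resveratrol and likewise with the combination. Of all tested genes 28.0% and 29.9% were called lower and 28.9% and 29.9% higher. The list was drawn up knowing that the study reports MYC target genes from these samples, so its direction is not independent evidence. The median fold change was −0.35 with resveratrol and −0.41 with the combination, beside 0.00 for all tested genes in both. With library size alone 39 and 40 were called lower, beside 2857 and 3311 of the 15476 tested genes. NPM1, a nucleolar chaperone, fell by 0.72 and 0.83, and NCL, the nucleolar protein nucleolin, by 0.47 and 0.55. The 1 gene called higher in both was SHMT2, a mitochondrial enzyme of serine metabolism, at 0.07 and 0.11. EGCG called 4 of the 45 lower, beside 0.859%, among them ODC1, the first enzyme of polyamine synthesis, at −0.13. It called 2 higher, beside 0.905% of all tested genes. The larger of those rises was LDHA, lactate dehydrogenase A, which stood at 0.21 with EGCG, −0.60 with resveratrol and 0.26 in the combination against resveratrol. Of these 6 genes, ODC1 and LDHA were still called with EGCG whichever library was left out.

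Of 12 genes that MYC is known to repress 10 were tested, and 6 were called higher and 2 lower with resveratrol and with the combination. The shares of all tested genes were 28.9% higher and 28.0% lower with resveratrol and 29.9% for each direction with the combination. The cell cycle inhibitor CDKN1A rose by 1.11 and 1.36, and CDKN2B, an inhibitor of CDK4 and CDK6, by 1.12 and 1.27. THBS1, an inhibitor of angiogenesis, fell by 0.74 in both. CDKN1C, another inhibitor of the cell cycle, fell by 0.66 with resveratrol and by 0.50 with the combination from 15.5 ± 4.09 normalized counts in the control. The latter call (edgeR adjusted p = 0.0628) was lost without any 1 of control replicates 2, 3, 5 and 6 and combination replicates 2, 4 and 6 (highest edgeR adjusted p = 0.141). The genes of the list called lower with the combination numbered 1 in DESeq2 and with library size alone, beside 4471 and 3311 of the 15476 tested genes. With EGCG 1 of the 10 was called, beside 1.76% of all tested genes. This was NDRG1, a stress-induced gene that also followed TXNIP over the libraries, at 0.39.

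Among 20 cofactors and regulators of MYC stability, resveratrol called 12 lower and 4 higher and the combination 9 lower and 4 higher, with medians of −0.15 and −0.08. Of all tested genes 28.0% were called lower and 28.9% higher with resveratrol and 29.9% each way with the combination. AURKA, a mitotic kinase that stabilizes MYC proteins, fell by 0.67 with resveratrol, and by 1.02 with the combination. With EGCG its change of −0.10 was close to the limit (edgeR adjusted p = 0.0956) and lost its call in 10 of the 12 fits without 1 library (highest adjusted p = 0.201). It was the 1 gene of the list with a called interaction, at −0.25 ± 0.04 (edgeR adjusted p = 0.0044). RUVBL1, a chromatin remodelling ATPase, fell by 0.33 and 0.40 with resveratrol and the combination. ZBTB17 (MIZ1), through which MYC represses genes, rose by 0.28 and 0.39.

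The relatives and clients of TXNIP moved less uniformly than the pair itself. Of the other alpha-arrestins, 3 of 4 were tested. None of these was called with EGCG, beside 1.76% of all tested genes. With resveratrol 2 were called higher and with the combination 3, beside 28.9% and 29.9% of all tested genes. ARRDC3, an adaptor of receptor ubiquitination, rose by 0.63 with resveratrol and 0.89 with the combination, ARRDC1 by 0.25 and 0.31, and ARRDC2 by 0.20 with the combination, a call lost in 7 of 12 fits without 1 library (highest edgeR adjusted p = 0.291). In the thioredoxin system and the clients of TXNIP, 8 of 9 genes were tested, of which 1 was called higher and 1 lower with EGCG, beside 0.905% and 0.859% of all tested genes. With resveratrol and with the combination 2 were called in each direction, beside shares of 28.0% to 29.9% of all tested genes. These counts became 4 higher and 1 lower with resveratrol and 3 higher and 1 lower with the combination under library size alone. That scaling called 6147 of the 15476 tested genes higher and 2857 lower with resveratrol, and 6041 and 3311 with the combination. TXNRD1, which reduces thioredoxin, fell by 0.32 with EGCG but rose by 0.73 with resveratrol and by 0.44 with the combination. SLC2A1 (GLUT1), a glucose transporter that TXNIP restrains, rose by 0.18 with EGCG and fell by 0.23 with resveratrol and by 0.09 with the combination, the last not called without control replicate 5 or combination replicate 6 (edgeR adjusted p = 0.249 and 0.122).

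Other genes known to respond to carbohydrate through MondoA or ChREBP were too few for their calls to set them apart from all tested genes. Of 12, 8 were tested. With EGCG edgeR and DESeq2 called none of them, beside 1.76% of all tested genes, and the unadjusted p in edgeR was under 0.05 for 2 of the 8, HK2 at 0.11 and FGF21 at −0.90. Resveratrol called 4 higher and 1 lower, beside 28.9% and 28.0% of all tested genes, and the combination 3 higher and none lower, beside 29.9% for each direction. Under library size alone the combination called 6 higher, and resveratrol 5 higher and none lower. Of the 15476 tested genes that scaling called 6041 higher with the combination, and 6147 higher and 2857 lower with resveratrol. FGF21, a metabolic hormone, rose by 1.57 and 1.67 from 7.24 ± 1.77 normalized counts in the control, ACACB, an acetyl-CoA carboxylase, by 0.71 and 0.87, and TKFC, which phosphorylates glyceraldehyde, by 0.30 and 0.27. HK2, a hexokinase, fell by 0.16 with resveratrol.

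**Figure D5:**
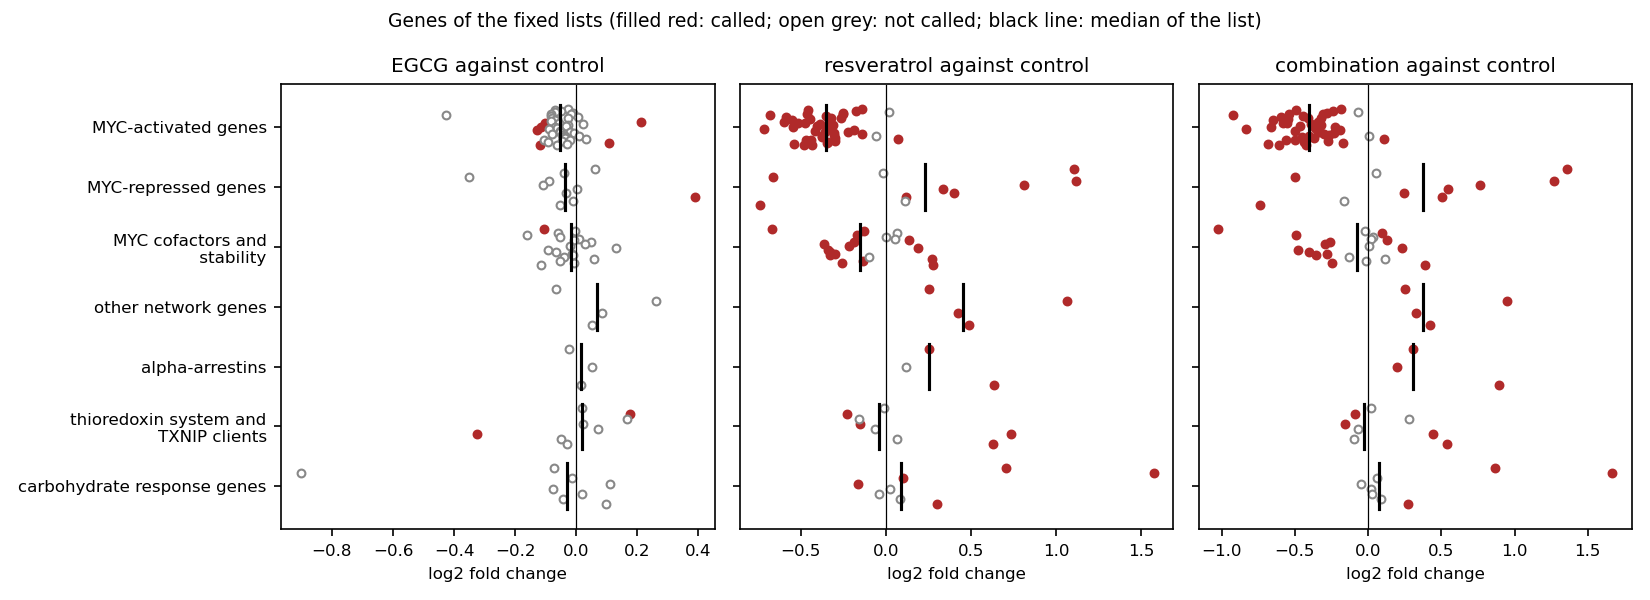
Fitted log2 fold change of the tested genes of the 7 lists in each treatment against the control; filled red points were called, open grey points were not, and black lines are list medians. The MYC-activated genes lie mostly below 0 in both panels with resveratrol (medians −0.35 and −0.41), and few genes of any list were called with EGCG.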

How the data were processed

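Stranded mRNA libraries of the 24 samples were sequenced as paired reads, trimmed with Trimmomatic 0.36 and aligned to GRCh38 with HISAT2 2.0.4, per the submitters' processing notes. The counting program, annotation release and strand setting are not given in the sources used here. The deposited raw counts are whole numbers per gene that were not normalized. The authors' normalized counts, a signal, equal them after division by a size factor, and FPKM, which the authors computed from these, is also per length. Raw counts were used for all tests, normalized counts for levels of a gene, and FPKM for levels between genes.

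The fit covered all 24 libraries in edgeR 4.0.16 and R 4.3.3 (filterByExpr, TMM, glmQLFit and glmQLFTest) with 1 coefficient per group, and p-values were adjusted by Benjamini-Hochberg over 15476 genes. The biological coefficient of variation was 5.32%. Standard errors come from the F statistic. Sources name the libraries of a group as replicates without saying whether cultures were separate, so p-values measure the spread between these samples, which may be technical. The raw counts give counting error only within that spread.

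The members, lists and the division of replicates were chosen with earlier results of these data known. All 10 members are named, with up to 3 called genes per direction of each list with the smallest p, and the 5 genes most correlated with MYC and with TXNIP. Gene coordinates are from GENCODE v44, and promoters from RefSeq with Python 3.11.15. On simulated counts for combination against control (15322 genes, 200 changed), edgeR called 74 of 100 genes changed 1.5-fold, 96 of 100 changed 2-fold and 18 unchanged genes. In the data 59.8% of tested genes were called with the combination. That is a far larger share than was changed in the simulation, so these counts describe the simulated setting only. Alternatives were DESeq2 1.42.0, other scalings and filters, an adjusted p under 0.05, only the groups compared, a replicate block, a batch term, each set of replicates alone, and each library left out.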

Additional observations from a re-analysis of the deposited data

Results flagged for a closer look

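In 4 of 40 groups of 6 normalized counts (10 members in 4 groups), a library stood apart from the others by Dixon's test at the 95% level. Chance alone flags about 1 in 20 groups. For MAX, control replicate 4 was the highest at 693.7 normalized counts, above a next value of 655.2. For MXD1, EGCG replicate 4 was the lowest at 66.8, below a next value of 93.6. For MXD3, control replicate 1 was the highest at 56.2, above 47.9. For MXD4, combination replicate 3 was the highest at 178.8, above 143.4. Without that library the rise of MXD4 with the combination was still called, at a log2 fold change of 0.68, and its difference between combination and resveratrol was 0.09 in place of 0.19, neither called.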

How the results depend on the processing

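Each of 60 member results (10 members, 6 comparisons) was recomputed under up to 11 other settings, which gave 650 values. The same side of the limits was kept by 623 of them, 15 lost a call and 12 gained one, and no called result changed sign, although 26 values that were uncalled in both fits did. Members called ranged, when each library was left out in turn, from 6 to 7 with resveratrol, from 5 to 7 with the combination, from 2 to 3 for combination against resveratrol and from 5 to 7 for combination against EGCG, with 2 for EGCG and 0 for the interaction throughout. In the fit of all 24 libraries the shares of all tested genes called were 56.9%, 59.8%, 7.86% and 57.8% in that order. They were 1.76% with EGCG and 0.265% for the interaction. With DESeq2 the count for combination against resveratrol was 2, beside 1094 of 15476 tested genes, MXD1 losing its call. With library size alone, MYC and MNT lost their calls with resveratrol, while MAX with resveratrol and in combination against EGCG (0.15) and MLXIP with resveratrol (0.12) and with the combination (0.16) gained calls. Replicate numbers were shared between groups, and deviations of same-numbered libraries correlated from −0.011 to 0.131, with a median of 0.049. The median was 0.028 for other numbers in the same set of replicates and −0.041 across the sets. Since 14 of 24 libraries correlated best with their own number, a pairing by number cannot be set aside. The main fit did not include one. A replicate block raised the calls over all tested genes from 273 to 370 with EGCG. With a replicate block 2, 7, 7, 3, 6 and 0 members were called with EGCG, resveratrol, combination, combination against resveratrol, combination against EGCG and the interaction. Of the 15476 tested genes the block called 9042 with resveratrol and 9479 with the combination. It called 1520 for combination against resveratrol and 9136 for combination against EGCG. Over all tested genes the interaction count moved from 41 to 85 with the block, 79 with the batch term, 69 in DESeq2 and 92 without a filter on low counts, and to 6 and 24 within the sets of replicates. Those sets gave 84 and 85 calls for EGCG against 273, and 816 and 399 for combination against resveratrol against 1217. Calls at an adjusted p under 0.05 numbered 803 for combination against resveratrol. The share of higher calls for combination against EGCG moved from 49.6% to 63.8% with library size alone. Depth limits the least abundant members most.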
